A study of Mus musculus with 8 samples.

Results

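The genes of voltage-gated sodium and calcium channels were examined in the medial ganglionic eminence (MGE) of the embryonic mouse, in WT tissue and in tissue from a conditional Nkx2-1 mutant. Members were taken by name: every gene whose mouse symbol begins with Scn and a digit, or with Cacna1, Cacna2d, Cacnb or Cacng. Of the 38 such genes reported here, 32 had a probe on the array that could be matched by accession, among 17178 matched genes in all. The other 6 (Cacna1b, Cacna1c, Cacna2d4, Cacng4, Scn4b and Scn9a) were not analysed here. After probes near background were set aside, 30 of the 32 genes were tested, among 14449 tested genes. Cacna1f and Scn7a were not tested, since their probes were well above background on too few arrays.

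The MGE is the ventral telencephalic domain that gives rise to most cortical interneurons and to neurons of the globus pallidus, and NKX2-1 is the homeodomain transcription factor that specifies it. Microdissected MGE at E13.5 gave 8 RNA samples of strain C57BL/6, 4 from WT and 4 from Nkx2-1cKO tissue, and each was hybridised to an array of its own. The WT samples are labelled Nkx2-1flox/+ without the Cre allele Olig2tva-cre, and the Nkx2-1cKO samples are labelled Nkx2-1flox/+ with it. Both groups thus carry the floxed allele in the label, which is written there with a + as the other allele, while the study's methods name the Nkx2-1f/f strain, Olig2-tva-Cre and the AI14 Cre-reporter. Cre from an Olig2 allele acts in cells with a history of Olig2 expression, and cells outside that lineage keep an intact gene. By the labels only the mutant group carries this Cre allele. Any effect of the allele itself cannot be told apart from that of the loss of Nkx2-1. Nkx2-1 itself was measured at 1.87 ± 0.06 in WT and -4.46 ± 0.19 in Nkx2-1cKO (SD, n = 4 arrays each), in log2 intensity relative to the 75th percentile of the array, the scale of all levels given here. That is 1.24% of the WT signal. The labels do not say whether samples are separate embryos, litters or pools, so the number of animals behind them is unknown. The p-values set the group difference against the spread between these samples.

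Voltage-gated sodium channels carry the rising phase of the action potential. Their pore is 1 large alpha subunit, and small beta subunits tune its gating and its place in the membrane. Voltage-gated calcium channels turn depolarisation into calcium entry. Their pore is an alpha1 subunit of the L-type (CaV1), the P/Q-, N- and R-type (CaV2) or the T-type (CaV3) group, and the auxiliary alpha2delta and beta subunits set how much channel reaches the surface. The Cacng genes encode the gamma subunits, several of which are better known as TARPs, the transmembrane proteins that traffic and modulate AMPA-type glutamate receptors.

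The promoter of Scn10a, the gene with the largest difference upward, is shown first. The window covers the 250 bases before the annotated start, from RefSeq in build GRCm38.p6, and lies on the minus strand at chr9:119719033-119719282, written 5′ to 3′. Capitals would mark a match to any of the letters searched on both strands, and none were found in it.

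Scn10a: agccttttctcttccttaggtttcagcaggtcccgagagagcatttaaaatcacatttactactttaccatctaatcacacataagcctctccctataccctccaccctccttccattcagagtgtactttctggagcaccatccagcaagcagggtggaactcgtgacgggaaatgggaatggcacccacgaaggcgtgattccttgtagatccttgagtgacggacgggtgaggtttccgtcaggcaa

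The first search was for the octamer ATGCAAAT, bound by POU factors, which 1.6% of 32851 promoter windows of this length hold. The letters TAATTA, a core bound by LIM homeodomain factors, occur in 4.84% of the windows. The letters CAAGTG, a core bound by NK2 homeodomain factors such as NKX2-1, occur in 11.6%. The E-box CANNTG, the site of bHLH factors, occurs in 66.2%, and CAAGTG is also a form of it. Of the 30 tested channel genes, 24 had an entry in the promoter table, and 14 of these held an E-box, 3 the NK2 core and none the octamer or the LIM core. The window of Cacng3, the only member past the threshold, held 1 E-box and none of the other letters. Median GC content was 59.8% over the 24 windows and 52.4% over all windows. The 24 are the first entry of each tested member, while all windows take in every entry, whether or not its gene was tested. Cacna1a, Cacna1g, Cacna1h, Cacng1, Scn3a and Scn3b had no entry.

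The arrays shared some features that touch the values below. Each of 2 slides carried 2 arrays of each group, and the slide term passed the threshold for 15.9% of all tested genes. On WT replicate 1, the dimmest 20% of probes sat 1.42 above the median of the arrays, against -0.20 to 0.02 on the other 7 arrays. No member spot was saturated or dropped as an outlier, and 47 of the 49 tested member probes were well above background on all 8 arrays.

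Of the 30 tested channel genes, Cacng3 alone passed the threshold, an adjusted p of 0.05 in limma over all tested probes. It fell in Nkx2-1cKO, and no member passed in the other direction. Over all tested genes, 0.851% passed lower and 0.491% passed higher. By sign alone, 18 channel genes were lower and 12 were higher, a share lower of 60% against 50.3% of all genes, and under quantile normalization 12 of the 30 were lower. The 18 include Cacna1e and Cacna1i, each well above background on 3 WT arrays and 1 mutant array. These genes passed the filter through the group in which they read higher, which favours a lower sign. The median log2 fold change was -0.05 over the members and 0.00 over all tested genes. The group means of 25 of the 30 members differed by under 0.3, and the median half-width of their 95% intervals was 0.33. In bulk tissue, fewer cells of a type and less RNA per cell cannot be told apart.

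**Figure D1:**
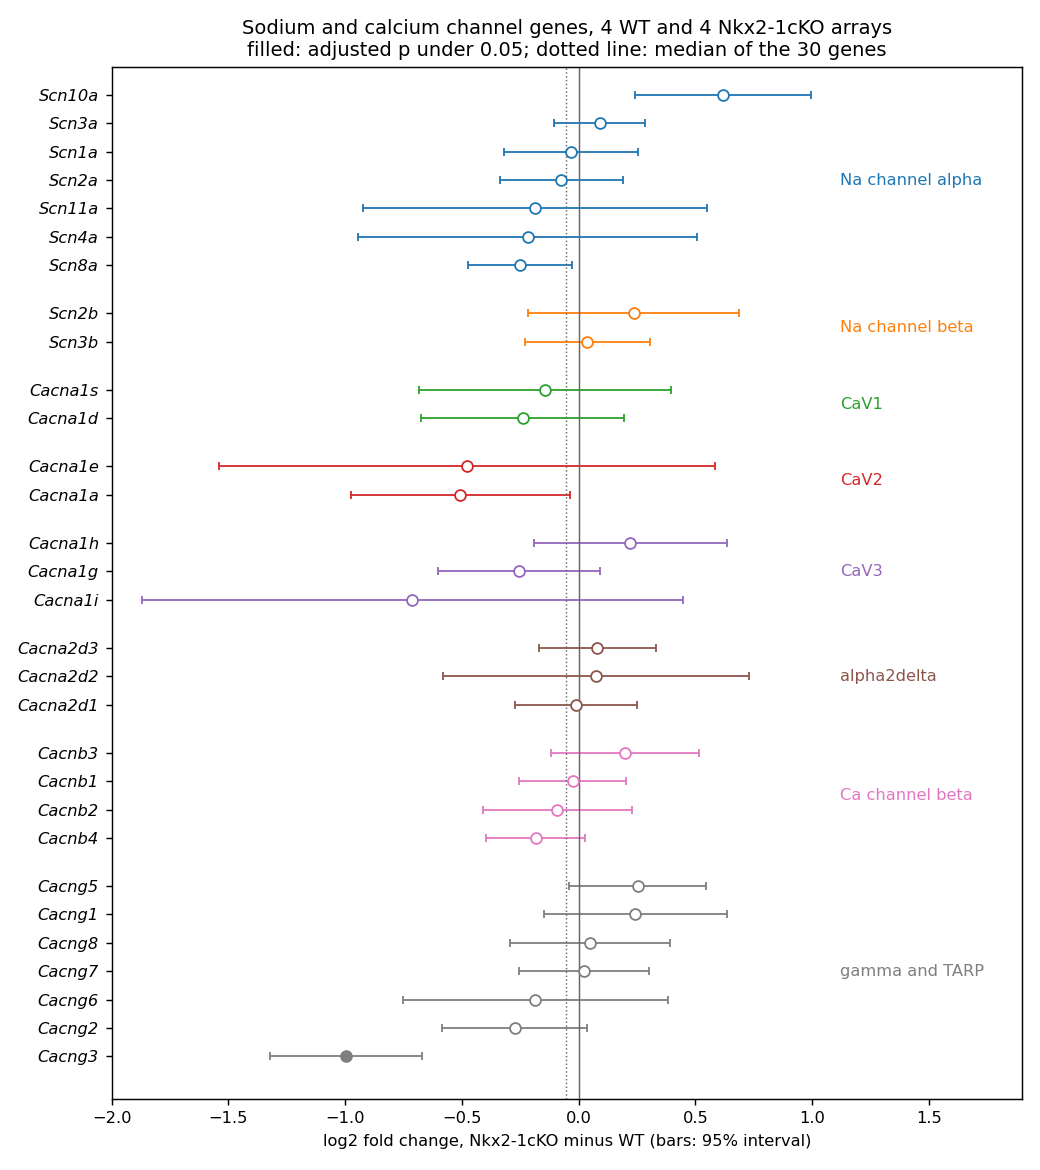
Log2 fold change of each of the 30 tested channel genes, Nkx2-1cKO minus WT, by the brightest tested probe of the gene, with 95% intervals from limma (4 arrays per group), grouped by subunit class. Only Cacng3, at -0.997, is filled as past the adjusted threshold. Scn10a lies farthest to the right at 0.62, and most intervals cross 0.

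Cacng3 encodes TARP gamma-3, an auxiliary subunit of AMPA receptors found in forebrain neurons. It read -2.88, -2.50, -2.51 and -2.46 on the WT arrays and -3.58, -3.33, -3.63 and -3.79 on the Nkx2-1cKO arrays. Every mutant array was below every WT array, and the highest mutant value lay 0.46 under the lowest WT value. The difference was -0.997 (SE 0.15, 95% interval -1.32 to -0.67), and the mutant signal was 50.1% of WT. The adjusted p was 0.00998 in limma, and an exact two-sided permutation test gave 0.0286, the smallest p that 4 arrays against 4 allow. With slide as a block the adjusted p was 0.00811, and the difference was -0.87 within slide 1 and -1.13 within slide 2.

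In the deposited intensities before any scaling, Cacng3 gave 351 to 445 on the WT arrays and 163 to 250 on the mutant arrays. The fall did not keep its call under every processing. Its size was -0.88 under both quantile normalization and centring on the median, with adjusted p of 0.057 and 0.0956. It was -0.34 under normexp background correction, where the fitted background mean of Nkx2-1cKO replicate 1 was -880 against 17.7 to 39.7 on the other arrays. With 7 local backgrounds over 2 times the median of that array replaced, the same correction gave -0.78 with an adjusted p of 0.018.

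**Figure D2:**
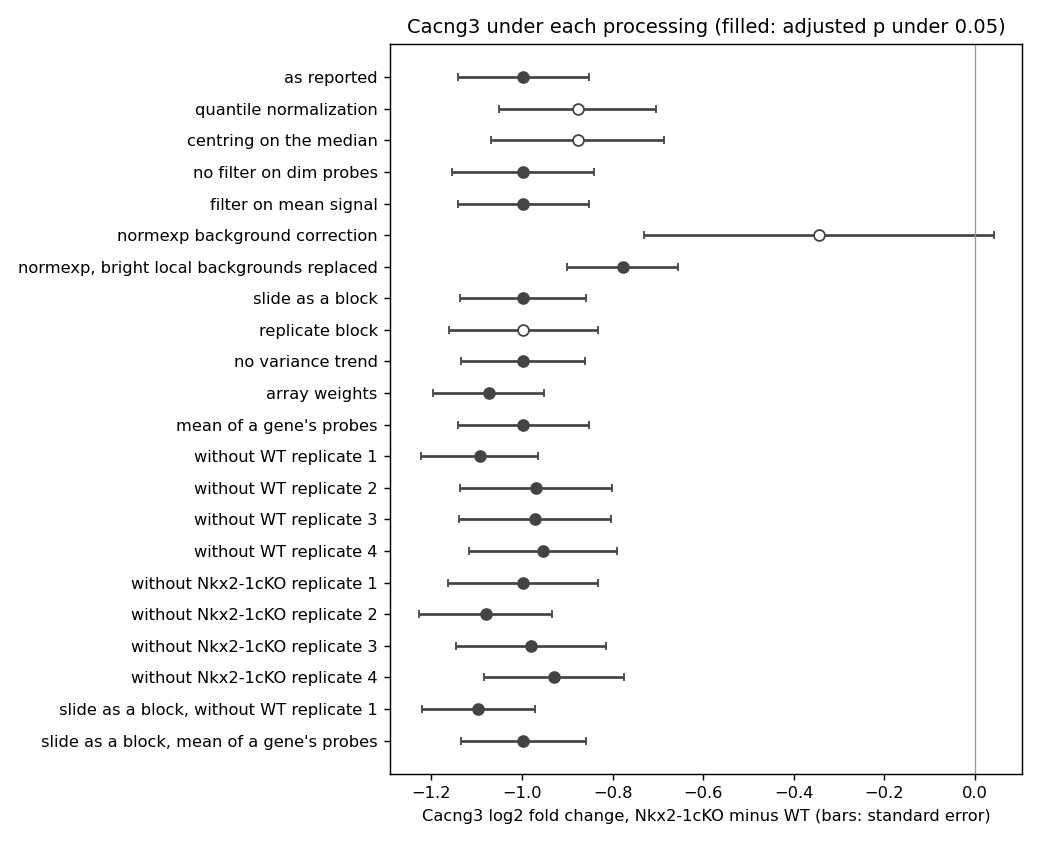
Cacng3 log2 fold change, Nkx2-1cKO minus WT, with its standard error under each processing tried, where filled points have an adjusted p under 0.05. Every estimate lies below 0, from -1.10 to -0.34, and the 4 open points are quantile normalization, centring on the median, normexp without replacement and the replicate block.

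Markers of other cells moved in the same tissue. Leaving out the targeted Nkx2-1, all 13 tested genes of a list of MGE-derived neuron markers were lower in Nkx2-1cKO and 11 passed the threshold, with a median of -1.65. Their summed signal, in units of the 75th percentile of the array, was 70.3 to 72.8 in WT and 20.7 to 21.9 in Nkx2-1cKO. Of 13 markers in a joint list for the lateral and caudal eminences (LGE and CGE), 12 were higher and 7 passed. Those 7 were Meis2, Ebf1, Isl1, Zfp503, Rarb, Foxp2 and Tac1. The CGE factors Sp8 and Nr2f2 differed by 0.34 and -0.13 and did not pass. The summed signal of the list was 44.0 to 59.4 in WT and 84.6 to 92.8 in the mutant. Meis2, its brightest gene, weighed most in these sums, with mean levels of 4.76 in WT and 5.74 in the mutant. Of 4 oligodendrocyte precursor markers, all were lower and 3 passed, with sums of 1.95 to 2.34 in WT and 0.67 to 0.93 in the mutant. The 11 general markers of differentiating neurons had a median of 0.00, with 5 lower and 6 higher. The neurofilament genes Nefl and Nefm passed and rose by 0.85 and 0.75. The largest falls, of Elavl4 at -0.30 and Dcx at -0.25, did not pass. None of 6 mesenchyme markers passed, but WT replicate 4 stood apart, with a summed signal of 7.63 against 1.43 to 2.01 on the other WT arrays and 1.44 to 2.05 on the mutant arrays. Without that array Cacng3 differed by -0.95 (adjusted p = 0.0451 in limma). No marker passed in the lists for dividing progenitors, pallial neurons, endothelium, erythroid cells and microglia. The part of these populations in the Cacng3 difference was not tested.

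The other TARPs and gamma subunits did not pass the threshold. Cacng2, which encodes stargazin, read -1.35, -1.71, -1.69 and -1.59 in WT and -2.16, -1.78, -1.61 and -1.88 in Nkx2-1cKO. The groups overlapped, with a difference of -0.27 (SE 0.14, adjusted p = 0.623), and its other tested probe gave -0.35. Without Nkx2-1cKO replicate 1 the difference was -0.17. Cacng5, another TARP, read -3.22, -3.14, -3.01 and -2.91 in WT and -2.65, -2.72, -3.06 and -2.85 in the mutant, and its 0.25 difference (SE 0.13, adjusted p = 0.625) left the groups overlapping at 1 mutant array. Cacng1, the gamma subunit of the skeletal muscle channel, read -4.33, -4.30, -4.58 and -3.90 in WT and -3.91, -3.95, -4.09 and -4.18 in the mutant, a difference of 0.24 (SE 0.17, adjusted p = 0.673). WT replicate 4 read above every mutant array of that gene, and the difference was 0.37 without it and 0.14 without WT replicate 3. Cacng6, Cacng7 and Cacng8 differed by -0.19, 0.02 and 0.05. These 3 genes lie next to each other on chromosome 7, and none of their intervals excluded 0.

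Among the sodium channel alpha subunits, 7 genes were tested, 5 lower and 2 higher, and none passed the threshold. In Scn10a the groups did not overlap, with the mutant higher. Of all tested genes, 2.82% were higher without overlap and 4.02% lower without overlap. Among the 30 members 1 was higher and 2 were lower in this sense, the lower ones being Cacng3 and Cacna1a.

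Scn10a encodes NaV1.8, known from pain-sensing neurons of the dorsal root ganglia. It read -4.82, -4.86, -4.75 and -5.18 in WT and -4.44, -4.25, -4.32 and -4.13 in Nkx2-1cKO. All mutant arrays lay above all WT arrays by 0.62 on average (SE 0.17, 95% interval 0.24 to 1.00), with an adjusted p of 0.214 and an exact permutation p of 0.0286. The difference was 0.60 within slide 1 and 0.64 within slide 2, and with slide as a block the adjusted p was 0.095. Scn11a, for NaV1.9, lies beside Scn10a on chromosome 9 and differed by -0.19 (SE 0.33), a value that turned to 0.13 without WT replicate 1.

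Scn8a encodes NaV1.6, a main channel of the mature axon initial segment. Its brighter probe read 1.92, 2.04, 1.76 and 1.64 in WT and 1.51, 1.65, 1.65 and 1.54 in Nkx2-1cKO. The groups overlapped at WT replicate 4, and the difference was -0.25 (SE 0.10, adjusted p = 0.518). The dimmer probe read -2.57, -2.26, -2.82 and -2.54 in WT and -2.98, -2.85, -2.83 and -3.18 in the mutant, without overlap, a difference of -0.41 (SE 0.14, adjusted p = 0.421). Both probes were thus lower, and neither passed the threshold.

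The alpha subunits of the central nervous system that sit on chromosome 2 differed little. Scn2a (NaV1.2) differed by -0.08, Scn1a (NaV1.1) by -0.03 and Scn3a (NaV1.3, an embryonic isoform) by 0.09, with 95% intervals of -0.34 to 0.19, -0.32 to 0.26 and -0.11 to 0.29. Scn3a read -0.91 ± 0.02 in WT and -0.82 ± 0.11 in Nkx2-1cKO (SD, n = 4 arrays each), and its dimmer probe gave a difference of -0.19. Scn4a, the skeletal muscle isoform, differed by -0.22 (SE 0.32).

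Among the beta subunits, Scn3b differed by 0.04. Scn2b, a beta subunit joined to the alpha subunit by a disulfide bond, read -0.30, 0.24, 0.38 and 0.64 in WT and 0.81, 0.30, 0.58 and 0.20 in Nkx2-1cKO. WT replicate 1 was its lowest array, the groups overlapped, and the difference was 0.24 (SE 0.20, adjusted p = 0.709). Without WT replicate 1 it was 0.056, without WT replicate 4 it was 0.37 and without Nkx2-1cKO replicate 1 it was 0.12.

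**Figure D3:**
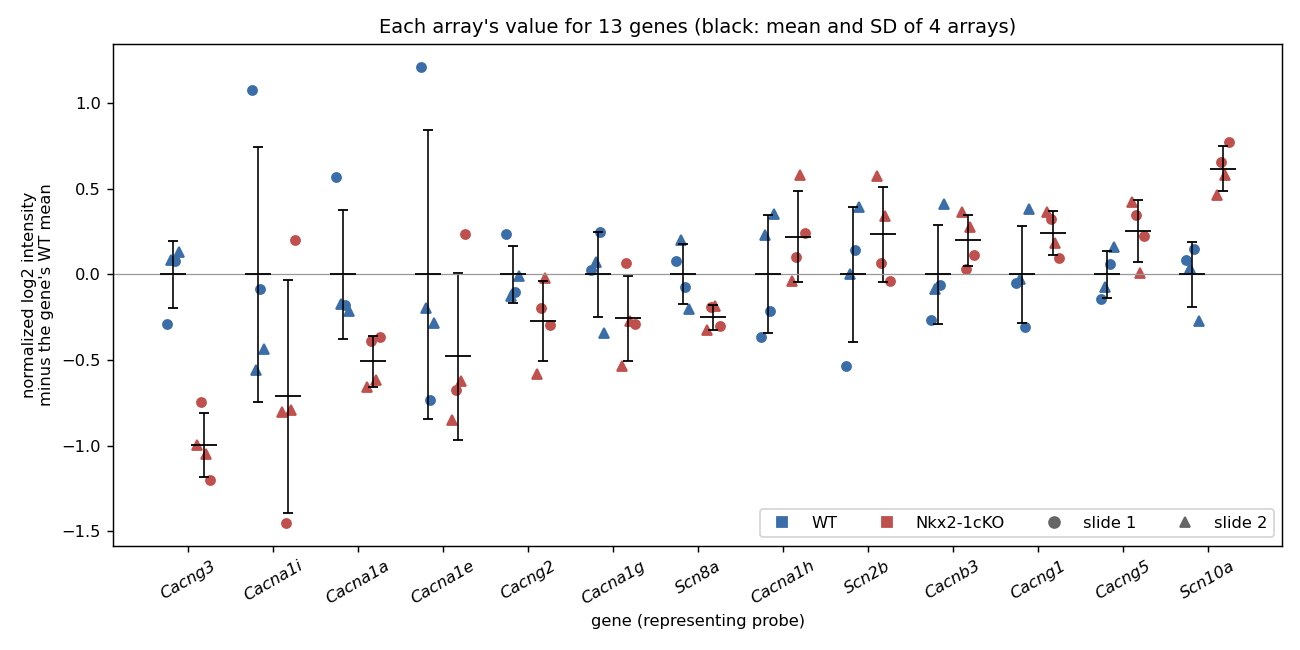
Normalized log2 intensity of each array minus the WT mean of the gene, for the 6 members with the largest differences upward, the 6 with the largest downward and Scn8a, with circles for slide 1, triangles for slide 2 and black bars for mean and SD (n = 4 arrays). Among these 13 the groups separate for Cacng3, Cacna1a and Scn10a and overlap for the other 10, and WT replicate 1 stands high for Cacna1i, Cacna1a and Cacna1e.

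Both tested CaV2 genes read lower in Nkx2-1cKO, other than under the normexp run with the poor background fit for both and under quantile normalization for Cacna1e, and neither passed the threshold. Cacna1a, the pore of the P/Q-type channel that drives transmitter release at many central synapses, read -3.57, -4.31, -4.32 and -4.36 in WT and -4.79, -4.53, -4.76 and -4.51 in the mutant. The groups did not overlap, and the difference was -0.51 (SE 0.21, 95% interval -0.98 to -0.04, adjusted p = 0.535). WT replicate 1 stood 0.74 above the next WT array, and without it the difference was -0.32. The dimmer Cacna1a probe gave -0.30 with overlapping groups.

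Cacna1e, the pore of the R-type channel, stood clear of background on 3 of the WT arrays and on 1 mutant array, and so was tested through the group in which it read higher. It read -5.05, -6.46, -7.00 and -6.55 in WT and -7.11, -6.94, -6.88 and -6.03 in the mutant. The arrays were intermixed apart from WT replicate 1, and the difference was -0.48 (SE 0.47, adjusted p = 0.739), or 0.04 under quantile normalization. Without WT replicate 1 it was -0.074, and without WT replicate 3 it was -0.72.

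The 3 T-type genes differed in sign. Cacna1i (CaV3.3) was detected as Cacna1e was, on 3 WT arrays and 1 mutant array, and read -5.48, -7.11, -6.64 and -6.99 in WT and -7.36, -8.01, -7.35 and -6.36 in Nkx2-1cKO. Its difference of -0.71 was among the largest of the members and also the least certain (SE 0.52, 95% interval -1.87 to 0.44, adjusted p = 0.673). Without WT replicate 1 it was -0.35, and without Nkx2-1cKO replicate 2 it was -0.47.

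Cacna1g (CaV3.1) read 0.32, 0.36, 0.54 and -0.05 in WT and -0.24, 0.36, 0.02 and 0.00 in the mutant, a difference of -0.26 (SE 0.16, adjusted p = 0.657), and its other probe gave -0.36. Without Nkx2-1cKO replicate 1 it was -0.16. Cacna1h (CaV3.2) read 0.59, 1.19, 0.74 and 1.31 in WT and 0.92, 1.06, 1.54 and 1.20 in the mutant, a difference of 0.22 (SE 0.18, adjusted p = 0.701). Its dimmer probes gave -0.15 and -0.44, so the mean of the 3 probes was -0.12. The brightest probe gave 0.10 without WT replicate 1 or without Nkx2-1cKO replicate 3 and 0.34 without WT replicate 4. Both genes overlapped between the groups.

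Of the L-type pores, Cacna1d (CaV1.3) differed by -0.24 (SE 0.19) with 3 tested probes between -0.28 and -0.24, and Cacna1s, the voltage sensor of skeletal muscle, by -0.14 (SE 0.24). Muscle tissue in the dissection was looked for by 8 markers. The 5 of them tested did not pass the threshold, which compares the groups and cannot show whether muscle was present in both. Myog, Myod1 and Ckm were not well above background on enough arrays. The summed signal of the 5 was 0.13 to 0.33 in WT and 0.11 to 0.22 in Nkx2-1cKO. The highest sum was on WT replicate 1, where the dimmest probes sat 1.42 above the median of the arrays.

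The 4 beta subunit genes gave differences from -0.18 to 0.20, and none passed the threshold. Cacnb4, a beta subunit of central neurons, was measured by 4 probes, all lower, at -0.18, -0.23, -0.30 and -0.32. One of these probes read -3.11, -3.00, -3.01 and -3.05 in WT and -3.31, -3.39, -3.24 and -3.41 in the mutant, without overlap, at an adjusted p of 0.439. The 4 probes report on 1 gene in the same 8 samples and are not independent. Cacnb3, a neuronal beta subunit, read 2.29, 2.47, 2.49 and 2.96 in WT and 2.92, 2.59, 2.83 and 2.67 in Nkx2-1cKO. WT replicate 4 was its highest array, and the difference was 0.20 (SE 0.14, adjusted p = 0.673), or 0.33 without that array and 0.11 without WT replicate 1. Cacnb2 differed by -0.09 and Cacnb1 by -0.03.

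**Figure D4:**
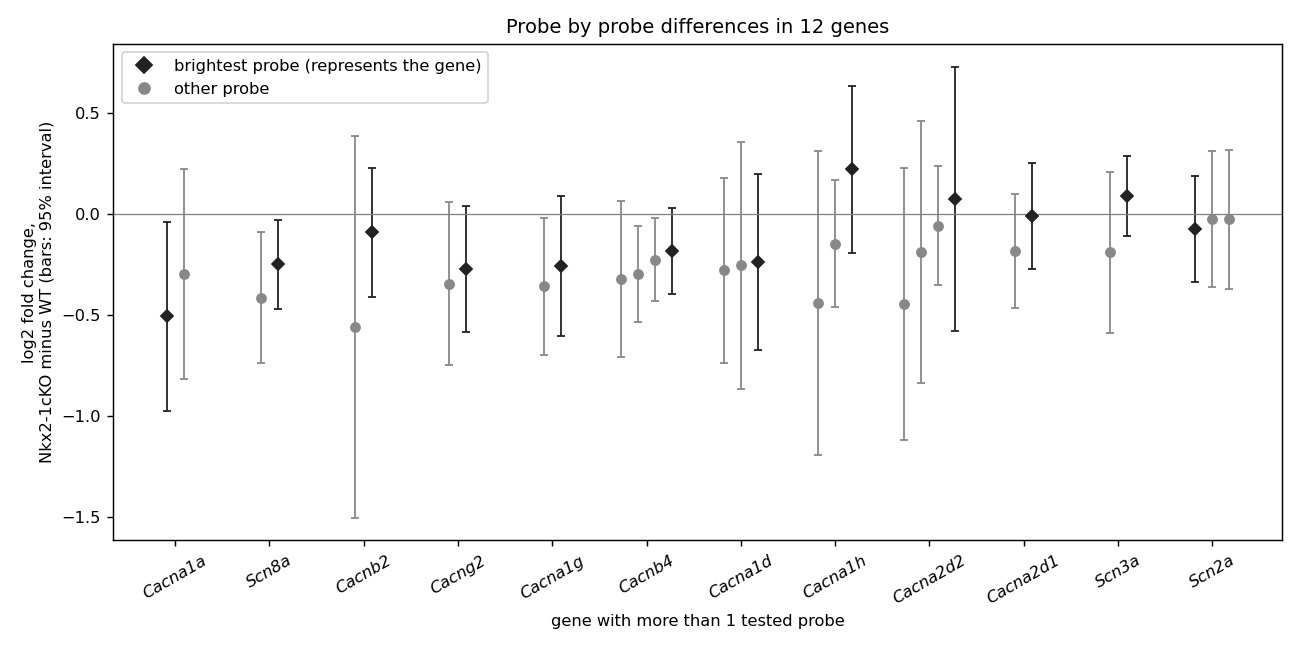
Log2 fold change of every tested probe of the 12 channel genes with more than 1 tested probe, Nkx2-1cKO minus WT, with 95% intervals, diamonds marking the brightest probe of each gene. In 9 genes all probes are lower, and in Cacna1h, Cacna2d2 and Scn3a the brightest probe is above 0 while another is below.

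Of the 12 genes with several tested probes, 9 had all probes lower, none had all probes higher and 3 were split. The same count over all genes with several tested probes was not made, and probes of 1 gene share the same 8 samples. The number of members lower also depended on the scaling (18 as reported, 12 under quantile normalization), so no lean of the family is read from this count. In each of the split genes the brightest probe read higher in Nkx2-1cKO and at least 1 dimmer probe read lower. At an unadjusted p under 0.05, 4 of the 30 genes passed (Cacng3, Cacna1a, Scn8a and Scn10a), against 9.47% of all tested genes.

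The alpha2delta subunits, the proteins to which gabapentin binds in the case of Cacna2d1 and Cacna2d2, differed between groups by -0.01, 0.08 and 0.08 for Cacna2d1, Cacna2d2 and Cacna2d3. Cacna2d2 separated the slides in place of the groups. Its brightest probe read 1.38, 1.36, 1.31 and 1.42 on the arrays of slide 1 and 0.32, 0.53, 0.46 and 0.69 on those of slide 2, a slide difference of -0.86 (adjusted p = 0.000279). The next brightest probe gave the same slide difference of -0.86 (adjusted p = 0.00015), and the other 2 gave 0.21 and -0.04. The Nkx2-1cKO minus WT difference of the brightest probe was 0.00 within slide 1 and 0.15 within slide 2. The slide term passed for 3 of the 30 members, Cacna2d2, Scn1a and Scn4a, set against the 15.9% of all genes above.

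**Figure D5:**
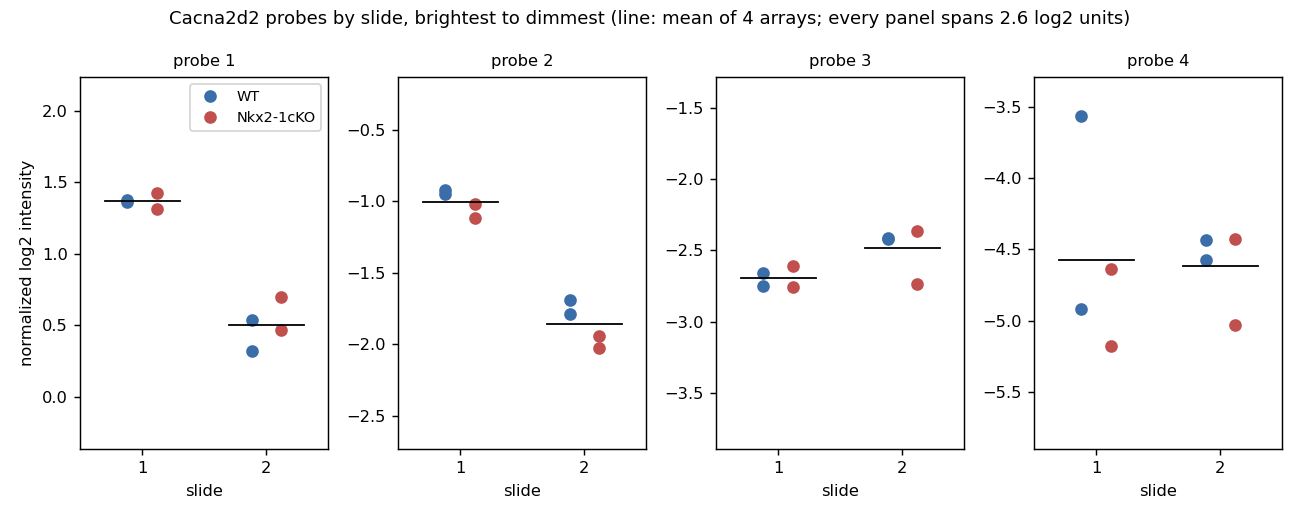
Normalized log2 intensity of the 4 Cacna2d2 probes by slide, brightest to dimmest, with 1 point per array, blue for WT and red for Nkx2-1cKO, and lines at the mean of 4 arrays. The first 2 panels step down from slide 1 to slide 2, by 0.94 and 0.80 in WT and 0.79 and 0.92 in Nkx2-1cKO, and the others show no such step.

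Genes of partner proteins, and of the separate sodium leak channel, were counted by lists. Of 4 fibroblast growth factor homologous factors, which bind the tail of sodium channel alpha subunits, Fgf14 passed the threshold. It read -1.03, -0.94, -0.73 and -0.95 in WT and -0.21, -0.25, -0.38 and -0.41 in Nkx2-1cKO. The groups did not overlap, and Fgf14 rose by 0.60 (SE 0.10, adjusted p = 0.019 in limma), or 152% of WT. The other members of that list were lower by up to 0.18 and did not pass.

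Stac2, for an adaptor protein of L-type channels, was the nearest to the threshold in the lists of calmodulins, STAC and RGK proteins. It read -1.85, -1.58, -1.77 and -1.39 in WT and -2.35, -2.22, -2.18 and -2.24 in the mutant. Its difference was -0.60 (SE 0.12), with an adjusted p of 0.0527 and 0.0247 with slide as a block. Of the 10 genes of that list, 6 were lower and none passed, with a median of -0.10. None of 5 axon initial segment genes, 3 genes of the sodium leak channel complex or 8 genes of the presynaptic scaffold passed, and their medians were -0.03, -0.03 and -0.11.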

How the data were processed

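Total RNA of microdissected MGE was hybridised to 1-colour Agilent arrays. The authors deposited Feature Extraction output (version 10.1 per the submitters' processing notes, 10.7.3.1 per the file headers), which gives spot intensity after background subtraction and detrending, with no scaling between arrays. Raw median intensity, local background and spot flags are deposited beside it. Of 41174 probes, 76.0% to 79.4% were well above background per WT array. On Nkx2-1cKO replicates 1 to 4 the shares were 71.7%, 72.4%, 71.1% and 79.5%. The 8 arrays limit the precision.

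Control spots and spots marked as outliers were dropped. Each array's 75th percentile was subtracted from its log2 intensities, and replicate spots were averaged per probe. Accessions were matched to symbols through a RefSeq gene table (24844 probes matched). The tests covered 31283 probes that were well above background on 4 or more of the 8 arrays. They used limma 3.58.1 in R 4.3.3 (lmFit, then eBayes with the trend option), Benjamini-Hochberg adjustment over all these probes, and a threshold of 0.05. The tested probe with the highest mean signal represents a gene. Probe specificity among related genes was not examined. The procedure was tested on simulated data with independent noise, which held no slide effect and no array shift.

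Of the genes that fit the rule, 2 are not reported here. The members and lists were chosen with earlier results of these data known. The genes named with array values are those past the threshold and the 6 largest rises and 6 largest falls. Scn8a, Cacna2d2, 1 Cacnb4 probe and the partner Stac2 were given with array values after their values were seen, and other members are named in the account of their subunit class. The alternatives tried included centring on the median, quantile normalization, other filters, normexp, slide or replicate number as a block, no trend, array weights, the mean of probes, and leaving out each array. The normexp run with replaced backgrounds and slide combined with other settings were chosen after seeing the data.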

Additional observations from a re-analysis of the deposited data

Results flagged for a closer look

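In 6 of 110 groups of 4 arrays over the member probes, 1 array lay apart from the other 3 by Dixon's criterion, where about 1 group in 20 (5.5 groups) is flagged by chance. Of these arrays, 3 were WT replicate 1, 2 were Nkx2-1cKO replicate 3 and 1 was Nkx2-1cKO replicate 1.

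Cacng3 on WT replicate 1 read -2.88, below the other WT arrays at -2.51 to -2.46 and nearest to the mutant values. Cacna1a on WT replicate 1 read -3.57, above the other WT arrays at -4.36 to -4.31. Scn7a, which was not tested, read -7.63 on the same array against -9.20 to -9.01 on the other WT arrays. Cacng8 on Nkx2-1cKO replicate 1 read -3.91, below the other mutant arrays at -3.56 to -3.50. A Cacna1e probe that was not tested read -7.55 on Nkx2-1cKO replicate 3, and was not well above background on any array.

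A further Cacna1d probe was left out of the tests because it was near background on 7 arrays. On Nkx2-1cKO replicate 3 it read -4.88 and was well above background there, while the other mutant arrays read -9.02 to -8.47 and the WT arrays -9.29 to -7.65. The 3 tested Cacna1d probes were well above background on all 8 arrays.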

How the results depend on the processing

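No member gene passed the threshold as higher in any of 21 alternatives, and the only one that passed as lower in any of them was Cacng3. It was lower in all 21 and passed in 17. The number of members called lower was 0 under quantile normalization, centring on the median, normexp and the replicate block, and was 1 each time an array was left out. Without single arrays Cacng3 lay between -1.09 and -0.93. Same-numbered arrays lie on different slides and deviated oppositely (correlations -0.481 to -0.194), and replicate numbers were not used as pairs. With the replicate block the Cacng3 difference was -0.997 with an adjusted p of 0.13, and calls over all probes went from 324 to 73, against 474 with slide as a block. Under normexp calls were 158, under centring on the median 209.

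Signs of many differences did not hold throughout. Over these alternatives 10 of the 30 genes kept their sign in every one, and 64 of 629 gene values had the other sign. Cacna1a, Cacna1d, Cacna1i and Cacna2d3 turned under normexp alone. The median of all tested probes was -0.04 as reported, 0.08 under centring on the median and 0.19 under normexp, whose fit failed on Nkx2-1cKO replicate 1, and 0.02 under quantile normalization. The number of members lower was 18 as reported, 12 under quantile normalization, 13 under centring, 7 under normexp and 17 with the bright backgrounds replaced. Under quantile normalization Cacna1e read 0.041, Cacna1s 0.11, Cacnb1 0.021, Cacnb2 0.0051, Cacng6 0.28 and Scn11a 0.096. Under centring Cacna2d1 read 0.11, Cacnb1 0.094, Cacnb2 0.029, Scn1a 0.088 and Scn2a 0.045. Under normexp Cacna1a read 0.31, Cacna1d 0.41, Cacna1e 0.70, Cacna1i 0.65, Cacna1s 0.52, Cacna2d1 0.0079, Cacna2d3 -0.0029, Cacnb1 0.21, Cacnb2 0.25, Cacng6 0.64, Scn11a 0.62, Scn1a 0.055 and Scn4a 0.37. With bright backgrounds replaced, Cacna2d1 alone turned, to 0.015. Under array weights Cacna1s read 0.078, Cacna2d1 0.040, Cacnb1 0.043, Cacng7 -0.077, Scn11a 0.15, Scn1a 0.049 and Scn4a 0.13. By the mean of probes, with or without slide as a block, Cacna1h read -0.12, Cacna2d2 -0.15 and Scn3a -0.050. With slide as a block and without WT replicate 1, Cacna1s read 0.029, Cacna2d1 0.053, Cacng7 -0.040, Scn11a 0.072 and Scn3b -0.045.

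When 1 array was left out, the range was -0.27 to 0.062 for Cacna1s, -0.085 to 0.069 for Cacna2d1, -0.12 to 0.24 for Cacna2d2, -0.070 to 0.022 for Cacnb1, -0.067 to 0.068 for Cacng7, -0.044 to 0.14 for Cacng8, -0.36 to 0.13 for Scn11a, -0.11 to 0.052 for Scn1a, -0.056 to 0.098 for Scn3b and -0.37 to 0.084 for Scn4a. Without WT replicate 1 the number of members lower was 14. Where the cause of a change is not named, the cause was not tested. The median 95% half-width of 0.33 limits what these 8 arrays can show of a member.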
